A study of Mus musculus with 6 samples.

Results

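MiR-197 is a microRNA (miRNA), and 1 capture probe of the array carries its name, joint for human and mouse, hsa-miR-197/mmu-miR-197. The values below are those of this probe, and what else it may bind was not tested. It was found by its name among 597 probes that name a mouse miRNA, and it is printed as 4 of the 8720 spots of each array, which gives 24 spots over 6 arrays. Retinal cells of mice developing experimental autoimmune uveoretinitis (EAU), taken on day 14 (3 samples), were set against retinal cells of naive mice (3 samples). MiR-197 was chosen by the measured difference in its ratio between these groups, so its values in that contrast are given as a description, with no test. All mice were of strain B10.RⅢ and 8 weeks old, and the samples were harvested independently, per the labels. The number of mice in a sample, the antigen used to induce EAU and its adjuvant are not given in the labels, and mice given adjuvant alone were not analysed here. For each array, 800 ng of total RNA of 1 sample carried the dye Hy3, and a pool blended equally from the samples carried Hy5 and was shared by all arrays.

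EAU is a T cell driven inflammation of the retina that serves as a mouse model of human uveitis. MiRNAs are short RNAs that guide Argonaute proteins to messenger RNAs, mostly through the seed near their 5′ end, and lower the output of those messages. In human cells, messages reported to be lowered by miR-197 include those of the tumour suppressor TUSC2, of the cell cycle regulator CKS1B and, in skin keratinocytes, of a subunit of the interleukin 22 receptor.

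The probes next to miR-197 in the order of decreases in EAU were miR-183, miR-182, miR-96, miR-30b, miR-30a and miR-204. Mature sequences of 5 of them, from RefSeq (GRCm38.p6), are shown so that their seeds can be compared. The array names give no arm, and the 5p arm was taken, by the older naming of these miRNAs. Capitals mark the seed, bases 2 to 8.
miR-183 (5p arm, chr6:30169711-30169732, minus strand): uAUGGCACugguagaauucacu
miR-182 (5p arm, chr6:30165962-30165986, minus strand): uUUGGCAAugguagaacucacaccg
miR-96 (5p arm, chr6:30169506-30169528, minus strand): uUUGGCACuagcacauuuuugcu
miR-30a (5p arm, chr1:23272274-23272295, plus strand): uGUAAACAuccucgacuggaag
miR-204 (5p arm, chr19:22750610-22750631, plus strand): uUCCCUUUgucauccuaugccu
The first 3 lie in 1 cluster on chromosome 6 that is abundant in photoreceptors. The 5 seeds shown differ from one another.

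The arrays were dim. The median spot signal ranged from 56.2 to 94.8 scanner units in Hy3 and from 33.9 to 38.1 in Hy5, over local backgrounds of 22 to 24 and of 29 or 30. EAU replicate 3 had the fewest mouse probes above the blanks in Hy5, 149, against 239 to 314 on the other arrays. The EAU arrays share one scan day and the naive arrays share an earlier one, per the file headers, so the effects of group and of scan day cannot be told apart. All 3 photoreceptor miRNAs, all 7 neuronal miRNAs and both pigment epithelium miRNAs looked up were above the blanks on at least 1 array of each group. On a single array 249 to 315 of the 597 mouse probes were above the blanks in Hy3, so this bar is too low to identify the tissue.

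At miR-197 the sample channel separated the groups spot by spot. On EAU replicate 1 the 4 spots read 219, 223, 214 and 208 scanner units in Hy3. On EAU replicate 2 they read 237, 174, 235 and 234, and on EAU replicate 3 they read 97.2, 99.4, 101 and 97.2. EAU replicate 3 was thus the dimmest array, and replicate 2 had 1 low spot. On naive replicate 1 the spots read 627, 563, 623 and 639.8, on naive replicate 2 they read 792, 861, 862 and 779, and on naive replicate 3 they read 616, 656, 769.6 and 778. The brightest of the 12 EAU spots, at 237, lay below the dimmest of the 12 naive spots, at 563, so the groups did not overlap in any spot. The share of all probes whose spots separate in this way was not computed, and miR-197 was chosen by this contrast. None of the 24 spots was marked as an outlier or as saturated, and all 24 carried the software's flag for signal well above background in both channels. That flag is a low bar in Hy3, as all 597 mouse probes met it on at least 3 arrays.

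The mean Hy3 signal of the 4 spots was 178 ± 68.8 in EAU and 714 ± 105 in naive samples (SD, n = 3 each). With the local background taken off, it was 155 ± 68.5 in EAU and 691 ± 105 in naive samples, which is 4.46-fold lower in EAU. In Hy3, spots of 1 array agreed more closely than arrays of 1 group did. The coefficient of variation over the 4 spots was 3.07%, 13.8% and 2.04% on EAU replicates 1 to 3. It was 5.57%, 5.33% and 11.6% on naive replicates 1 to 3. In RNA of a whole tissue, fewer cells of a type that holds miR-197 and less miR-197 per cell cannot be told apart.

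In the pool channel the groups overlapped. The 4 spots read 58.4, 65.9, 84.3 and 98.2 in Hy5 on EAU replicate 1, 73.0, 61.4, 109 and 111 on EAU replicate 2, and 44.2, 50.6, 56.7 and 57.8 on EAU replicate 3. They read 70.7, 82.6, 95.9 and 101 on naive replicate 1, 74.0, 105, 137 and 133 on naive replicate 2, and 53.5, 59.3, 78.25 and 79.2 on naive replicate 3. EAU replicate 3 was lowest here too, and the other two EAU arrays lay among the naive ones. The mean over spots was 72.6 ± 18.5 in EAU and 89.2 ± 22.4 in naive samples, a gap smaller than the spread between arrays. The lower ratio of miR-197 in EAU therefore came with a large gap in the sample channel and a small one, in the same direction, in the pool.

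**Figure D1:**
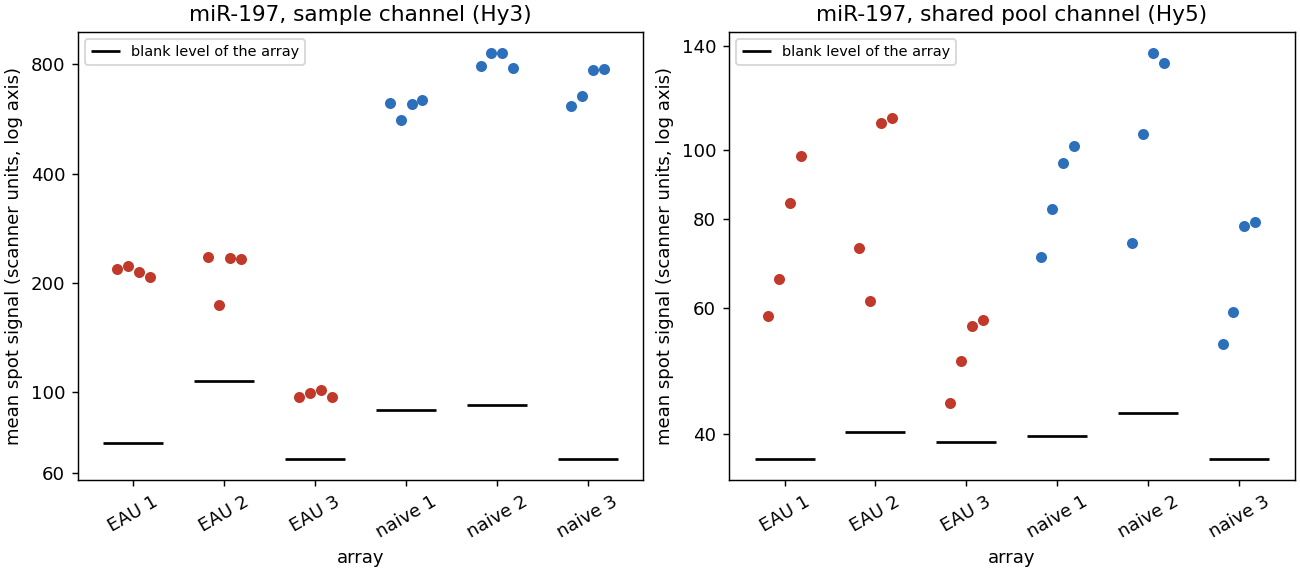
Signal of each of the 4 miR-197 spots on each array (points, log axis, red EAU and blue naive), in the sample channel (left) and the shared pool channel (right). Black lines give the blank level of that array. In Hy3 the EAU spots lie between 97.2 and 237 and the naive spots between 563 and 862; in Hy5 the groups overlap.

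The signal of miR-197 was then set against the blanks, which were 116 spots with neither probe ID nor name and 28 negative-control spots on each array. The blank level is the median of those spots plus 3 median absolute deviations. In Hy3 it was 72.7, 107 and 65.4 on EAU replicates 1 to 3 and 89.3, 92.1 and 65.7 on naive replicates 1 to 3. The mean miR-197 signal stood at 2.97, 2.05 and 1.51 times that level on the EAU arrays, and at 6.87, 8.94 and 10.7 times on the naive arrays. In Hy5 it stood at 2.08, 2.21 and 1.34 times the level on the EAU arrays and at 2.21, 2.63 and 1.83 times on the naive arrays. All 24 spots were above the level in both channels, and the margin was smallest on EAU replicate 3.

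The blanks themselves were not uniform. Some spots without a name were bright, up to 6377 in Hy3 on EAU replicate 2, so that 14, 18 and 25 of the 144 blanks were brighter than the miR-197 mean on EAU replicates 1 to 3, and 9, 8 and 5 on naive replicates 1 to 3. Against the 95th percentile of the blanks, miR-197 lay higher on 6 of its 24 spots in Hy3, all on naive arrays, and on 0 in Hy5. Of the 28 negative-control spots alone, 0, 0 and 3 exceeded the miR-197 mean in Hy3 on EAU replicates 1 to 3, and 0 on each naive array. The highest negative-control spot exceeded 2, 1 and 4 of the 4 miR-197 spots in Hy3 on EAU replicates 1 to 3, and 0 on each naive array. On EAU replicate 3, whose negative controls had a median of 44.2 and a highest value of 265, all miR-197 spots thus lay within their range.

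The 4 spots lie at 9.43, 22.6, 35.8 and 49.0 mm along the scan, and the pool channel changed along that axis. The Hy5 signal of miR-197 over its local background was higher at the last position than at the first on every array, by 2.44, 1.89 and 2.03 times on EAU replicates 1 to 3 and by 1.75, 2.31 and 2.14 times on naive replicates 1 to 3. In Hy3 the same quotient lay between 0.947 and 1.00 on the EAU arrays and between 0.985 and 1.27 on the naive arrays. A like change ran across the arrays: over the mouse probes above the blank level at all 4 positions, the median Hy5 quotient was 2.15, 2.01 and 1.12 on EAU replicates 1 to 3, and 2.13, 2.43 and 2.81 on naive replicates 1 to 3. The Hy5 quotient was above 1 for 56.6% to 85.9% of those probes, depending on the array. In Hy3 most arrays rose too, by less: the median quotient was 1.16, 1.17 and 0.98 on EAU replicates 1 to 3. On naive replicates 1 to 3 it was 1.32, 1.12 and 1.19. The Hy3 quotient was above 1 for 47.2% to 89.5% of the probes above the blank level in Hy3, a share like that in Hy5.

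The log2 ratio of miR-197 also changed along that axis. After loess normalization it was higher at the first position than at the last by 0.91, 0.76 and 0.42 on EAU replicates 1 to 3 and by 0.50, 0.81 and 0.37 on naive replicates 1 to 3. The difference between the groups was present at each position. It was -1.38 at the first, with a log2 ratio of -0.34 ± 0.21 in EAU and 1.04 ± 0.29 in naive samples (SD, n = 3 each), -1.20 at the second and -1.43 at the third. At the last position it was -1.51, with -1.04 ± 0.37 in EAU and 0.48 ± 0.15 in naive samples. The highest EAU spot on this scale, -0.21, was below the lowest naive spot, 0.30. How many of all probes show such a gap between spots was not computed.

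**Figure D2:**
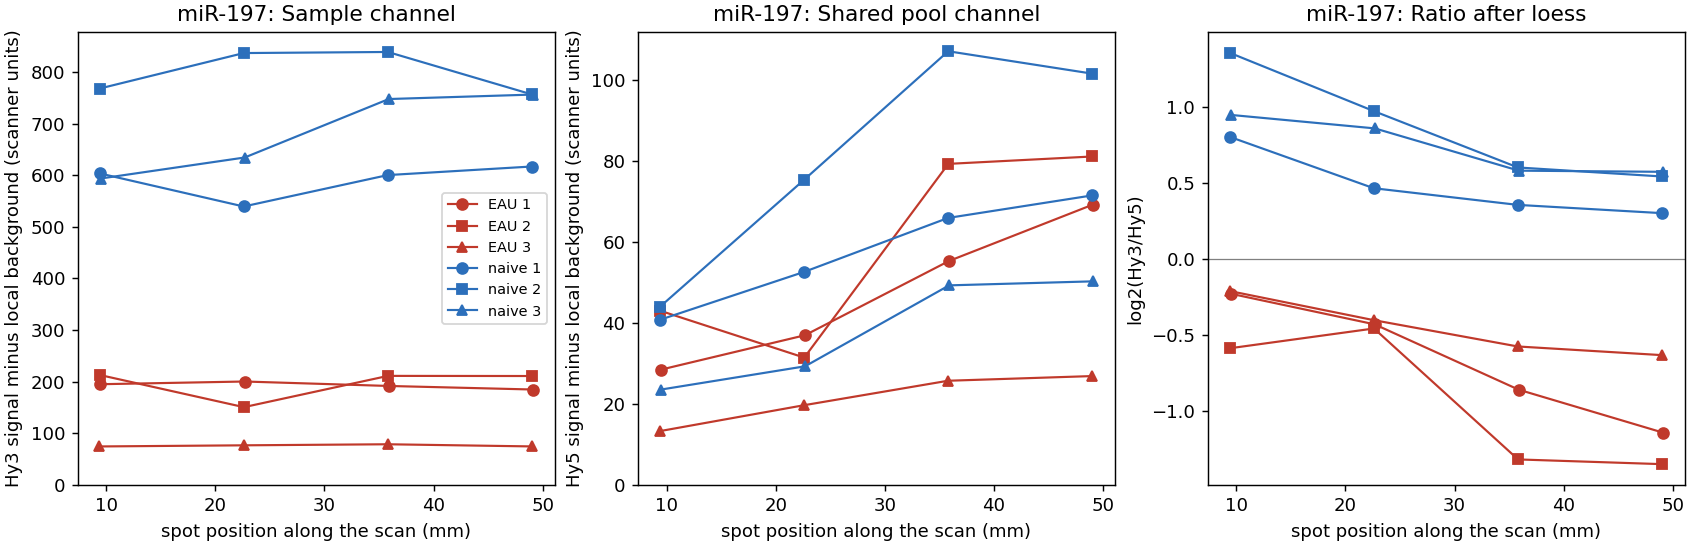
Values of miR-197 against the position of its spot along the scan in mm, with 1 line per array (red EAU, blue naive): Hy3 and Hy5 signal over local background in scanner units, and the log2 ratio after loess. The Hy5 lines climb from the first to the last position on all 6 arrays, and the log2 ratios fall along the axis while EAU stays below naive at each position.

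Averaged over the 4 spots, the log2 ratio of miR-197 was -0.66, -0.93 and -0.45 on EAU replicates 1 to 3. It was 0.48, 0.87 and 0.74 on naive replicates 1 to 3. After loess every EAU array was below 0 and every naive array above it. The side of 0 depends on the normalization, as the group means were 0.41 in EAU and 2.18 in naive samples with median centring, and 1.08 in EAU and 2.78 in naive samples with no normalization. The group means were -0.68 ± 0.24 in EAU and 0.70 ± 0.20 in naive samples (SD, n = 3 each). The difference was -1.38, or 2.60-fold lower in EAU. Over the 4 spots of 1 array the SD was 0.41, 0.47 and 0.19 on EAU replicates 1 to 3. It was 0.23, 0.38 and 0.19 on naive replicates 1 to 3. Unlike in Hy3, spots of 1 array were thus on some arrays further apart than arrays of 1 group. The order of the EAU arrays turned with the scale and the processing. Replicate 3 had the lowest Hy3 signal of the 6 arrays, and its pool channel was also the dimmest. After loess it had the highest ratio of the 3 EAU arrays. By the processed signals of the scanner software its log2 ratio was the lowest of the 3, at -1.66. In the deposited value table its ratio, 0.443, lay between those of the other EAU arrays.

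In the deposited value table, whose linear ratios run as Hy3 over Hy5, miR-197 had 0.466, 0.415 and 0.443 on EAU replicates 1 to 3. It had 1.32, 2.06 and 1.83 on naive replicates 1 to 3. The EAU values lay closer together, 0.441 ± 0.0254, than the naive ones, 1.74 ± 0.381 (SD, n = 3 each), and the mean ratio was 3.93-fold lower in EAU. The scale and direction were read from the scanner values, and the centring of the table is not given in the sources used here: its column medians over the mouse probes were 0.864, 0.913 and 0.846 on EAU replicates 1 to 3 and 0.90, 0.87 and 0.83 on naive replicates 1 to 3. Set against its own column median, miR-197 was at -0.89, -1.14 and -0.93 on the EAU arrays and at 0.55, 1.25 and 1.15 on the naive arrays, on the log2 scale.

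The processed signals of the scanner software gave a wider gap. Their log2 ratio was -1.33, -1.65 and -1.66 on EAU replicates 1 to 3 and 0.49, 1.15 and 1.15 on naive replicates 1 to 3. That is a difference of -2.47, or 5.56-fold lower in EAU. Taken alone after loess and scaling between arrays, the sample channel of miR-197 was 6.67 ± 0.28 in EAU and 8.43 ± 0.26 in naive samples on the log2 scale, a difference of -1.77. The pool channel treated in the same way was 7.35 ± 0.30 in EAU and 7.73 ± 0.07 in naive samples. The difference of -0.39 was -0.23 without EAU replicate 3. Unlike the raw Hy5 signals, these pool values did not overlap, narrowly: the highest EAU value was 7.64 and the lowest naive value 7.65. Both channels are rebuilt from the ratio after loess, so this pool value is not independent of the sample channel. The constant that the background correction adds to both channels bears on the size: the log2 ratio difference was -2.07 with an offset of 10 in place of 50.

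**Figure D3:**
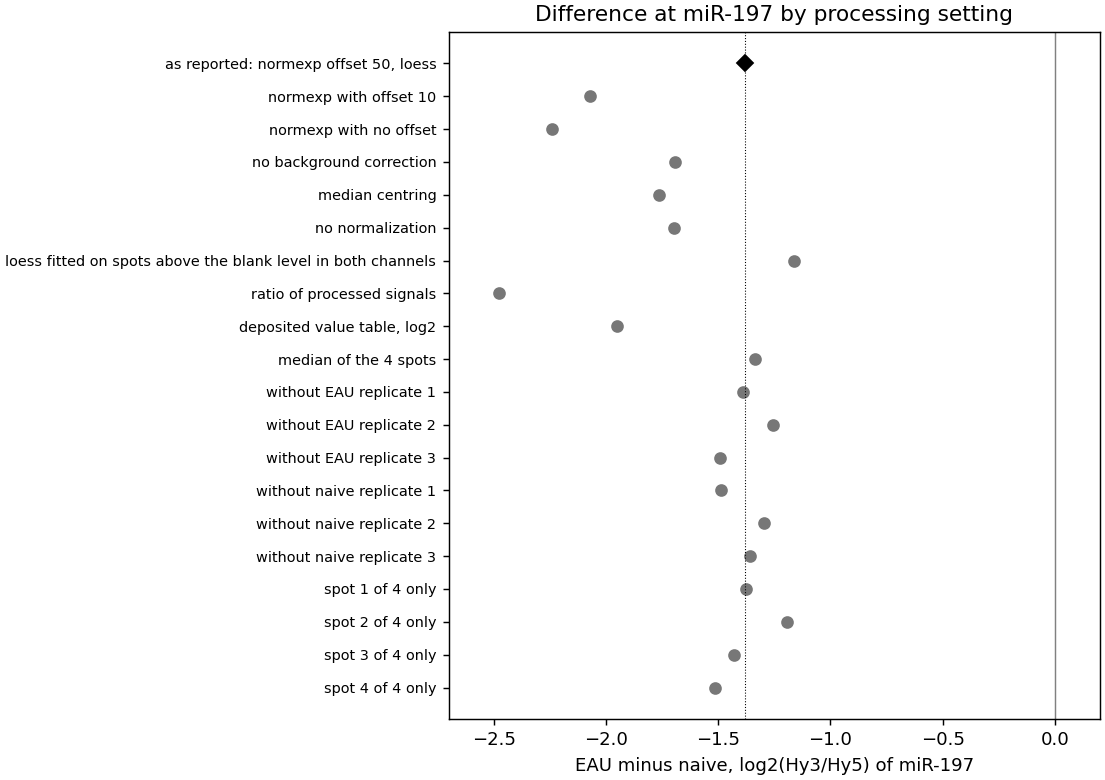
Difference of miR-197 between EAU and naive samples, in log2(Hy3/Hy5), under each processing setting, with 1 array left out, or with 1 spot position only. The diamond is the value of -1.38 given in the text, and the points lie between -2.47 and -1.16, none at or above 0.

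Over all 595 mouse probes with enough values the median difference was -0.01, and the 5th and 95th percentiles were -0.35 and 0.26. Only 3 probes, 0.504%, differed by -1 or lower: miR-183 (-1.38, with a value on 5 arrays), miR-197 (-1.38) and miR-182 (-1.28). Among the 592 probes with a value on all 6 arrays, miR-197 had the lowest difference. EAU and naive arrays did not overlap at miR-197, which was also so for 46.6% of the 595 probes, 29.6% with EAU lower. In limma's fit over all these probes, 77 had an adjusted p under 0.05 (12.9%), of which 52 were lower (8.74%) and 25 higher (4.2%) in EAU. That count was 7 without EAU replicate 3, and 9, 15 and 36 without naive replicates 1, 2 and 3.

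The spread of miR-197 within groups, a pooled SD of 0.22, was larger than the median over probes of 0.04. That median covers dim probes too, as only 288 of the 595 were above the blank level on at least 3 arrays. The SD of miR-197 was 0.24 in EAU and 0.20 in naive samples. MiR-182 had an SD of 0.85 in EAU and 0.21 in naive samples. MiR-183 had an SD of 0.63 over 2 EAU arrays and 0.08 in naive samples, so its difference and that of miR-197 cannot be ordered within their spread. Of the probes that followed, miR-96 differed by -0.91 (limma, adjusted p = 0.0593), miR-30b by -0.87 (adjusted p = 0.076), miR-30a by -0.75 (adjusted p = 0.0324) and miR-204, of the pigment epithelium, by -0.73 (adjusted p = 0.0291).

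**Figure D4:**
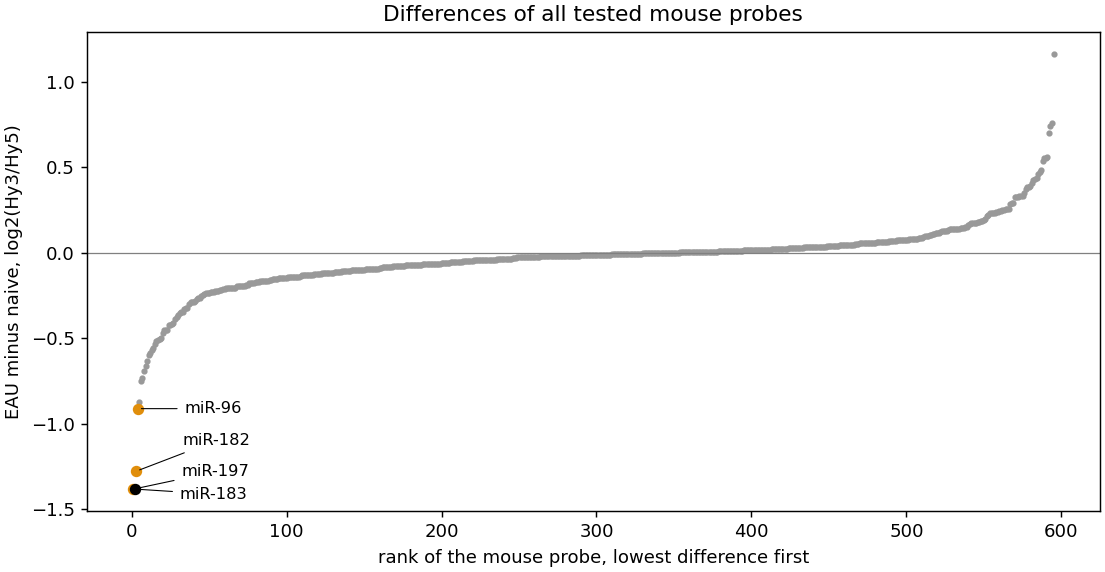
Difference between EAU and naive samples in log2(Hy3/Hy5) for each of the 595 tested mouse probes, ordered from the lowest. MiR-197 (black) stands at -1.38 beside miR-183, with miR-182 and miR-96 (orange) next, while the median of all probes is -0.01.

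The probes whose ratios followed miR-197 most closely over the 6 arrays were looked up among 284 mouse probes with all values and above the blanks on at least 3 arrays. They were miR-770-5p (Pearson's r = 0.992), miR-181b (0.974), miR-30e (0.973), miR-211 (0.969), a pigment epithelium miRNA, and miR-124* (0.960), the passenger strand of a neuronal miRNA. The arrays form 2 groups that do not overlap and share 1 pool, so r is given only as a measure of likeness, and 39 of the 284 probes had an r above 0.9. The size of the change was not alike: these 5 probes differed by -0.14, -0.53, -0.51, -0.50 and -0.41, against -1.38 for miR-197. On the EAU arrays the 5 lay between -0.31 and 0.14, all above the values of miR-197, which had -0.45 at its highest.

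**Figure D5:**
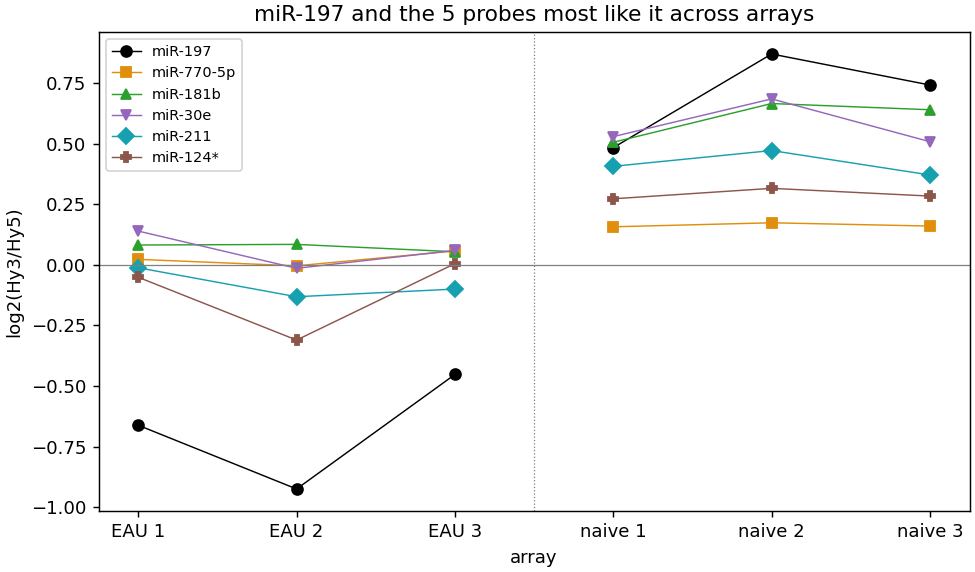
Log2(Hy3/Hy5) of miR-197 (black) and of the 5 probes with the highest correlation with it on each of the 6 arrays. All 6 are lower on the EAU arrays, left, than on the naive arrays, right, and miR-197 spans the widest range, from -0.93 to 0.87.

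Markers of several cell types moved between the same samples, and their part in the result for miR-197 was not tested. Of the 3 photoreceptor miRNAs 1 was called lower (miR-183), and miR-182 and miR-96 were lower without a call (limma, adjusted p = 0.104 and 0.0593). The summed Hy3 signal of the list over local background was 418 to 1091 on EAU arrays and 2726 to 3064 on naive arrays. Of the 7 neuronal miRNAs 3 were called lower (miR-9, miR-128 and miR-129-3p), and the others were lower without a call. The sums of this list were 6233 to 17899 on EAU arrays and 44335 to 50329 on naive arrays. Both pigment epithelium miRNAs were called lower (miR-204 and miR-211), with sums of 242 to 1224 on EAU arrays and 1256 to 1604 on naive arrays. The sums of these 3 lists were thus lower in Hy3 on the EAU arrays, narrowly so for the pigment epithelium. They are not normalized, and the brightest members weigh most in them. The share of all probes that are lower in this way in Hy3 was not computed, so the sums are only a description. After loess the ratio of the neuronal miR-124 overlapped between the groups. It was 0.18 and -1.95 on EAU replicates 1 and 3, and -0.43 to 0.06 on the naive arrays. In the leukocyte list, 1 of 7 members was called higher, miR-142-3p, with sums of 626 to 1433 on EAU arrays and 382 to 477 on naive arrays. Of those 7, miR-155 was under the blanks on all EAU arrays, and miR-142-3p, miR-142-5p, miR-155 and miR-146a were under the blanks on all naive arrays. Of the 3 erythroid miRNAs 1 was called lower (miR-486), and miR-144 was under the blanks throughout. The sums of this list were 140.2 to 348 on EAU arrays and 131 to 146 on naive arrays. These calls are limma's at an adjusted p of 0.05, and stand against 8.74% of all probes called lower and 4.2% called higher. Those shares include dim probes. With the fit limited to the 288 probes above the blank level on at least 3 arrays, 37 were called lower and 25 higher.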

How the data were processed

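The authors deposited 1 scanner file per array, which gives the intensity of every spot and of its surroundings in 2 channels. Per the file headers, the program was Agilent Feature Extraction, version 9.1.3.1, and it also wrote the processed intensity of each spot after its own background adjustment and dye normalization. A further table that the authors deposited holds 1 ratio per probe. How it was normalized is not given in the sources used here, and 9 mouse probes with a ratio above 32 on every array were left out of it. Hy3, the green channel, holds the sample on all arrays, and no dyes were swapped.

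From these, mean spot signals were corrected with normexp (offset 50) and normalized within arrays by loess, giving control spots a weight of 0 (limma 3.58.1, R 4.3.3). Outlier spots were dropped, and log2 ratios of Hy3 over Hy5 were averaged over the remaining spots of each probe. Single channels were taken after loess and Aquantile scaling. Mouse probes flagged well above background on at least 3 arrays were fitted with lmFit and eBayes, two-sided, with Benjamini-Hochberg adjustment. The fit was tested on simulated data.

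MiR-197 and the marker lists were chosen with earlier results of these data known. Named besides miR-197 are the probe before it and the 5 after it in the order of decreases, the 5 with the highest correlation with it, and list members past the threshold or under the blanks. Parts of the rule that need a mature sequence or a gene position of miR-197 were not used here. Alternatives were the background correction, normalization, source of the ratio, outlier spots, filter, blank level, replicate number as a block, and each array left out. Single spot positions were added after the data were seen. The number of arrays limits the precision, and p-values measure the spread between harvests.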

Additional observations from a re-analysis of the deposited data

How the results depend on the processing

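The difference of -1.38 at miR-197 stayed below 0, with no overlap between EAU and naive arrays, under the 9 alternatives on all arrays that could change it. The other 3 (outlier spots kept, the filter on dim probes and the replicate block) leave it as it is by construction. It moved by more than the SD within groups in 7 of the 9, to -2.07 with an offset of 10, -2.24 with no offset, -1.69 with no background correction, -1.77 with median centring, -1.70 with no normalization, -2.47 with the processed signals and -1.95 with the value table. Loess on bright spots gave -1.16. Leaving out 1 array gave -1.49 to -1.26. The median of all probes moved by less than 0.1 in each of these. MiR-197 ranked first by decrease in 6 of 10 settings, second in 3, and lower than that in 1. The sample channel difference of -1.77 was -2.58 after subtraction of the blank median and -2.10 against the 75th percentile, and -1.92 to -1.65 with 1 array left out. The median of all probes was 0.22 and -0.15 in those settings, so that miR-197 stood at -2.80 and -1.95 relative to it. The pool channel difference of -0.39 was -0.14 against the 75th percentile (-0.21 relative to the median of all probes), -0.59 after subtraction of the blank median (-0.49 relative to that median), -0.25 with no normalization, and -0.54 to -0.23 with 1 array left out; the groups overlapped there without loess. The count of 77 called probes was 26 with no offset, 2 with median centring, 25 with no normalization, 24 with loess on bright spots, and 7 to 77 with 1 array left out. With the replicate number as a block it was 2. No clear pairing by replicate number was seen: deviations of same-numbered arrays correlated at 0.192, -0.152 and 0.290, and 3 of 6 arrays correlated best with their own number. With so few arrays this check cannot exclude a pairing. The causes were not tested. Depth is limited most on EAU replicate 3, where miR-197 was 1.51 times the blank level in Hy3.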
